A study of Mus musculus with 12 samples.

Results

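The 49 genes described here encode the proteins that choose replication origins, build the fork and supply its nucleotides. They are the origin recognition complex, the licensing factors, the MCM helicase and the factors that activate it, the polymerases, the sliding clamp and its loader, the enzymes that join Okazaki fragments, 5 enzymes of nucleotide supply and 4 regulators of S phase entry. They were found as the array probes whose gene symbol, older or current, is in that list. All 49 had a probe, 99 probes in all, and 3 of those probes carried an older symbol. The transcripts of 47 of them were above background often enough to be tested, among 11472 genes tested in all. Pola1, the catalytic subunit of polymerase alpha, and Pole2, a subunit of polymerase epsilon, had no probe that passed. Of the 47 tested genes, 42 were above background on all 12 arrays, and the other 5 were Pcna and Ccne2 (11 arrays each), Orc2 (9 arrays), Gmnn (5 arrays) and Prim1 (5 arrays).

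RNA came from bone marrow of mice aged 3 months that carry a β-globin/GFP fusion transgene, and each of 4 groups was measured on 3 Illumina arrays. CD117 is c-Kit, the receptor for stem cell factor (SCF) on haematopoietic stem and progenitor cells, and the cells were separated by it into a CD117- fraction (titled A) and a CD117+ fraction (titled C). The SCF group held CD117+ cells kept for 48 h with 3 µg/ml SCF, and the U group held CD117+ cells with a title letter taken here to mean untreated, although the labels never spell it. The sources do not state whether the CD117+ and U cells were cultured alike. By the study's methods, 3 mice supplied the CD117- and CD117+ cells and no replicates of a fraction share a mouse. They leave unsaid which CD117- sample came from the mouse of which CD117+ sample. The methods do not name the U and SCF samples, which are CD117+ cells too, and if these replicates were not from separate mice their p-values measure only technical spread. Kit, the gene of CD117, read 8.94 to 9.58 on the CD117- arrays, 11.39 to 11.57 on the CD117+ arrays, 10.06 to 10.39 on the U arrays and 10.61 to 10.74 on the SCF arrays (log2 intensity). The CD117+ fraction exceeded the CD117- fraction 4.46-fold (log2 fold change 2.16 ± 0.15, adjusted p = 4.94e-09 from limma).

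A cell prepares to copy its genome in the G1 phase, when the origin recognition complex marks origins and CDC6 and CDT1 load the MCM helicase there as an inactive double ring. Geminin binds CDT1 and so keeps an origin from being loaded again after S phase has begun. The kinase CDC7 with DBF4, together with cyclin E and its kinase, then switches the helicase on through MCM10, CDC45 and the GINS complex, and primase and the polymerases begin synthesis behind it. Many of these genes are classical targets of E2F transcription factors, and their transcripts are higher in cycling than in resting cells. In bone marrow, early erythroid and granulocyte precursors divide actively, while mature neutrophils do not divide.

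Promoters of the members were searched for E2F words because E2F sites are the best known element that these genes share. RefSeq promoter windows (build GRCm38.p6) were found for 40 of the 49 genes, and the 250 bases before each start site were read on both strands for TTTCCCGC, TTTGGCGC, TTTCGCGC and TTTGCCGC. One of these words was present for 9 of the 40 genes (22.5%), against 2.16% of all 27025 genes with a window. The genes were Mcm6 with 3 words, Mcm5 with 2 and Cdc6, Gins3, Mcm7, Orc1, Orc3, Rfc3 and the untested Pola1 with 1 each. CCAAT was present for 52.5% of the members and 37.5% of all genes, and TTTGAA or TTCGAA, the core of the cell cycle homology element, for 22.5% and 19.6%. These shares are not particular to the members. Of the other replication genes described below, 30.8% had an E2F word and 59.0% had CCAAT. Of the mitosis genes, 5.56% had an E2F word and 83.3% had CCAAT. The stretches just before the start site are shown for the pair with the most words and for Mcm7 and Cdc6, both discussed with their array values, 5′ to 3′ on the strand of the gene with the E2F words of either strand in capitals. A match of letters is a description and does not show that a factor binds.
Mcm6 (chr1:128359706-128359825, minus strand): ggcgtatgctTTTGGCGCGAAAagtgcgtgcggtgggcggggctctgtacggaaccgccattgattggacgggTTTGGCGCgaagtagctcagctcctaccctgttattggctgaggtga
Mcm5 (chr8:75109346-75109508, plus strand): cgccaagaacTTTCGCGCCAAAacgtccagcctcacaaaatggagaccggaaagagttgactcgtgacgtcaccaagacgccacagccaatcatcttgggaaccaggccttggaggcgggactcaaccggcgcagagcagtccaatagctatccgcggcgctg
Mcm7 (chr5:138171884-138172058, minus strand): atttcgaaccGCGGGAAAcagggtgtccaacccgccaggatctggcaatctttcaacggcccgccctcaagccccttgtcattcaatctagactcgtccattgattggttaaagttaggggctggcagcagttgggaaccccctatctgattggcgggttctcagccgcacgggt
Cdc6 (chr11:98908003-98908150, plus strand): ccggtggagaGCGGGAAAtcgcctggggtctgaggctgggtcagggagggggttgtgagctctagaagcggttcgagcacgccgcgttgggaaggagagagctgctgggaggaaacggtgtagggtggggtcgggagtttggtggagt
In Mcm6 and Mcm5 the first capital run holds 2 words that overlap on opposite strands. Mcm7 has another start site whose window held no E2F word.

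The deposited intensities were background-corrected and quantile normalized over the 12 arrays and taken to the log2 scale, and a gene counts as changed at an adjusted p under 0.05 from limma, fitted over all 11472 genes. Between 16210 and 18248 probes were above background on an array (detection p under 0.05), and the lowest 3 of these counts were those of the CD117- arrays. Levels are log2 intensities and ± marks the standard error of a log2 fold change. Levels do not compare 1 gene with another because probes differ in brightness. CD117+ against CD117- and SCF against U are comparisons within sets of arrays that the authors normalized together. U against CD117+ and SCF against CD117+ cross these sets, so for both of them set and condition cannot be told apart. SCF against U, U against CD117+ and SCF against CD117+ share samples, and their values are given side by side. CD117+ against CD117- shares its CD117+ arrays with U against CD117+ and SCF against CD117+, so the level on those arrays enters each of these comparisons.

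Most of the tested replication transcripts had their lowest mean level in the U cells. The mean level was lowest in U for 39 of the 47 tested genes, in CD117- for 7 and in SCF for 1, and it was highest in CD117+ for 32, in CD117- for 8 and in SCF for 7. How many of all genes tested had these orders was not counted, so the counts have no background beside them. The order of the 4 groups also crosses the sets of arrays, where set and condition cannot be told apart. In SCF against U cells 35 of 47 were higher (74.5%, against 14.1% of all genes tested) and 1 was lower (2.13%, against 13.7%), with a median log2 fold change of 0.78 against 0.02 over all genes. Those 35 differed by 1.29- to 2.33-fold. They include Prim1, which was above background often enough to be tested only because of the SCF arrays. In bulk samples such as these, a larger share of cells with a transcript and more of it in each cell cannot be told apart.

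CD117+ cells differed less evenly from CD117- cells. There, 21 of 47 were higher (44.7%, against 29.6% of all genes) and 3 were lower (6.38%, against 21.3%), with a median of 0.35 against 0.07. Against the CD117+ cells, 42 of 47 were lower in U (89.4%, against 28.5% of all genes) and 2, Gmnn and Pcna, were higher (4.26%, against 28.5%), with a median of -1.18 against -0.01. In the SCF cells 25 were lower than in CD117+ cells (53.2%, against 21.9%) and 3, Gmnn, Pcna and Prim1, were higher (6.38%, against 24.6%), with a median of -0.45 against -0.01. Of these, Gmnn and Prim1 were above background often enough to be tested only because of groups where they were high. Scaling the arrays to equal medians instead of equal distributions moved the median of all genes in CD117+ against CD117- cells from 0.07 to 0.49, and the share of higher among called genes from 58.1% to 85.4%. Under that scaling 41 of 47 members were higher and 1 was lower in CD117+ cells, beside 6001 higher and 1024 lower of all 11472 genes. The members' median above that of all genes was 0.49 in place of 0.28. In SCF against CD117+ cells that scaling left 11 of 47 members lower and 5 higher, with a median of -0.21, beside 1374 lower and 3878 higher of all 11472 genes. The median of all genes there moved from -0.01 to 0.18.

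**Figure D1:**
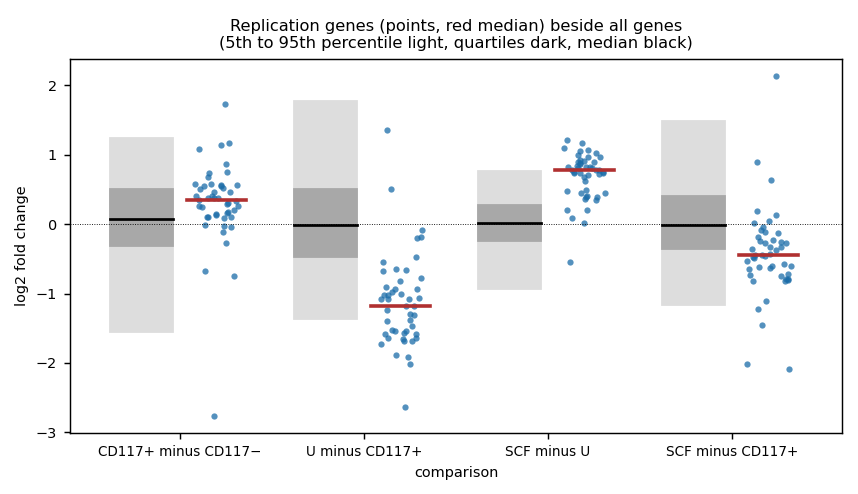
Log2 fold changes (vertical axis) of the 47 tested replication genes (points, with their median in red) in the 4 comparisons, beside all 11472 genes (light box from the 5th to the 95th percentile, dark box the quartiles, black line the median). The members' median is -1.18 in U minus CD117+ and 0.78 in SCF minus U, while the medians of all genes lie between -0.01 and 0.07.

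**Figure D2:**
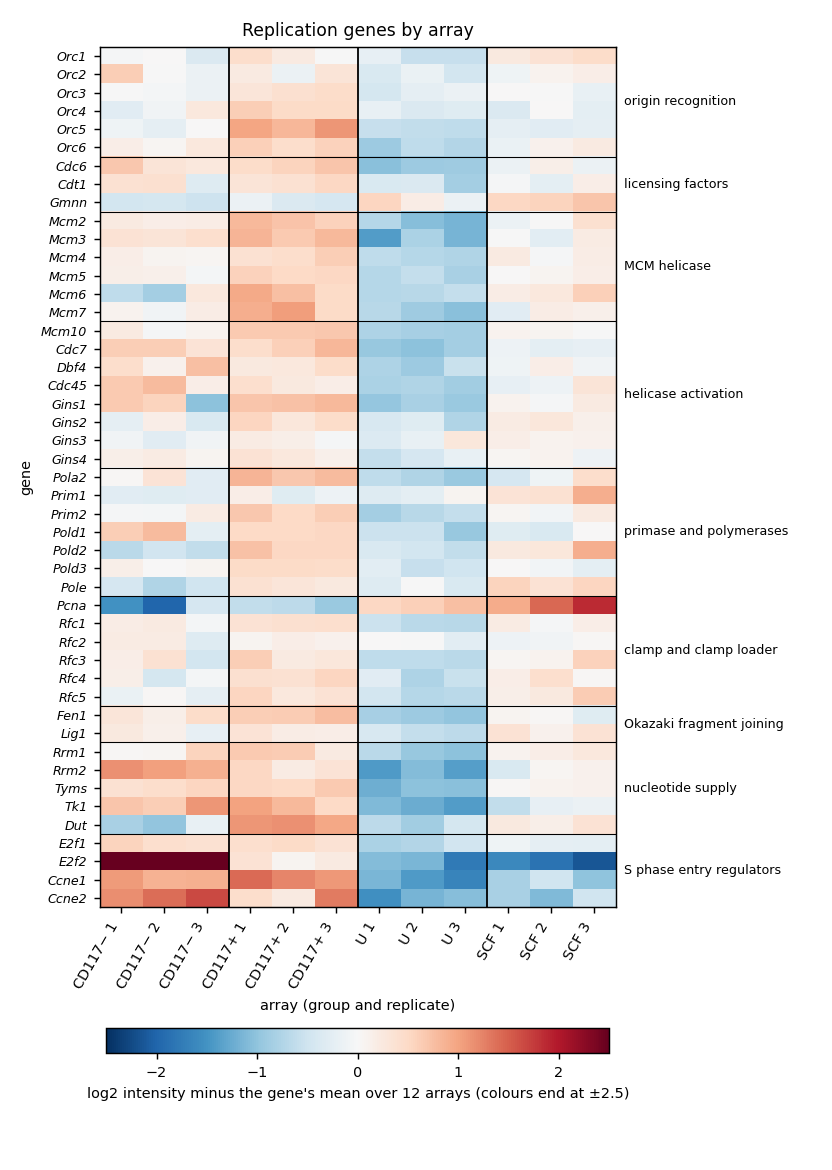
Log2 intensity of each tested replication gene (rows, by role) on each of the 12 arrays (columns), minus the mean of the gene over the 12 arrays. Blue marks lower and red higher levels, and the U columns are blue for most genes, with Pcna and Gmnn among the exceptions.

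Called patterns across the comparisons were varied. The most frequent ones are given here, and the remaining genes were scattered over others. In 12 genes the transcript was higher in CD117+ than in CD117- cells, lower in U than in CD117+ cells, and higher in SCF than in U cells while still lower than in CD117+ cells. They were Orc5, Orc6, Mcm2, Mcm3, Mcm4, Mcm5, Mcm7, Mcm10, Pola2, Prim2, Fen1 and Dut. Another 6 (Mcm6, Gins2, Pold2, Pole, Rfc4 and Rfc5) had the same calls except that SCF against CD117+ did not pass the test. For 9 genes (Orc1, Dbf4, Cdc45, Gins1, Gins4, Rfc1, Rfc3, Lig1 and Rrm1) the calls were a lower level in U than in CD117+ and a higher level in SCF than in U, with no other. The 6 genes Cdc6, Cdc7, Tyms, Tk1, E2f1 and Ccne1 were called as these 9 and were also lower in SCF than in CD117+ cells. How many of all genes tested had each pattern was not counted, and the comparisons share arrays. These joint counts therefore have no background beside them.

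**Figure D3:**
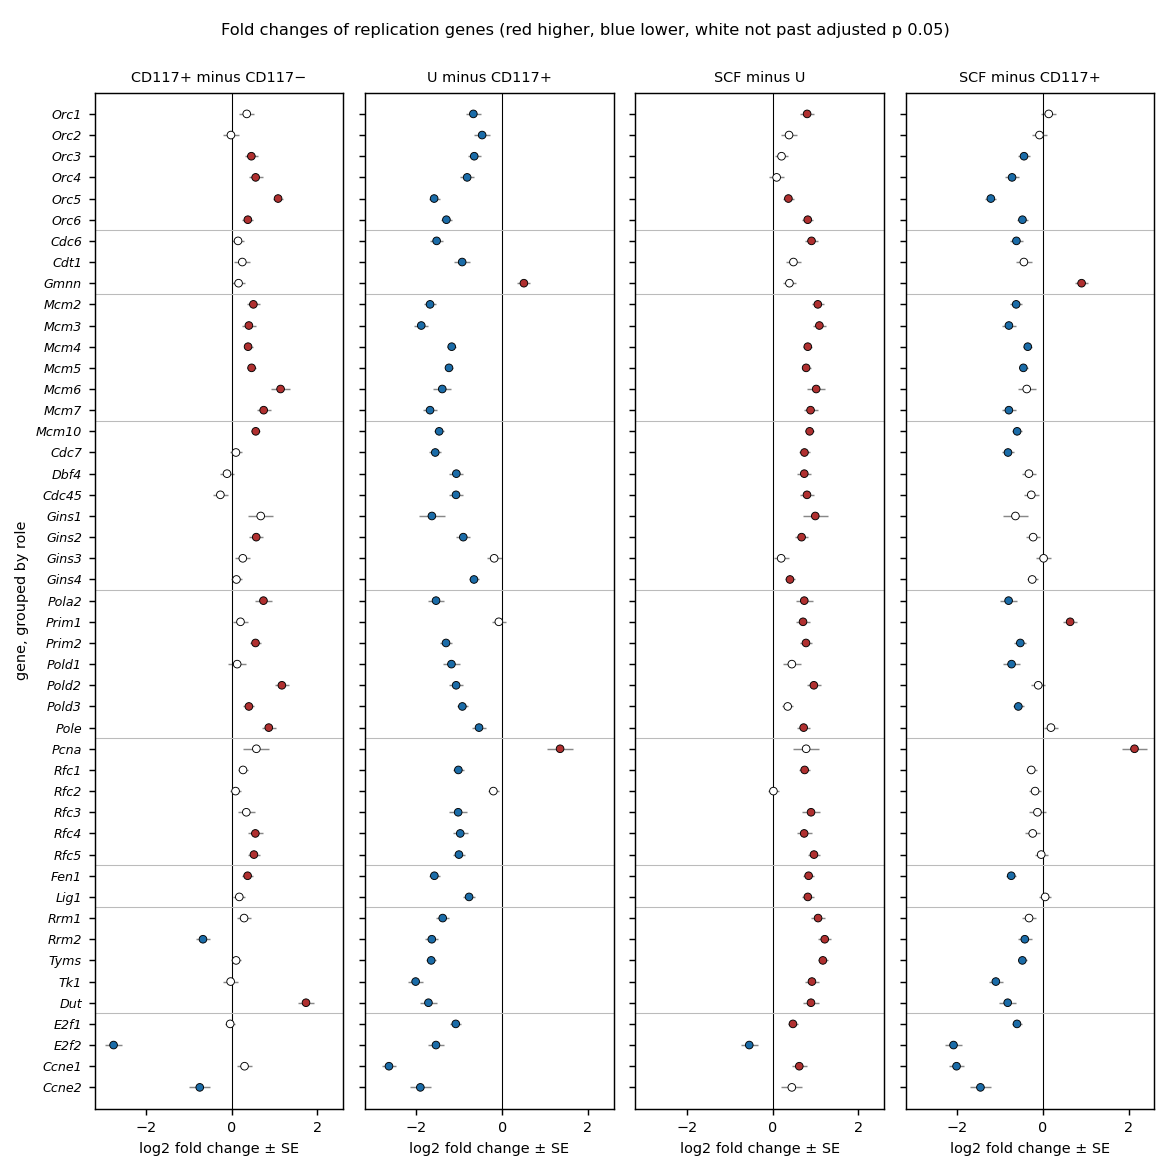
Log2 fold change with standard error (horizontal axes) of each tested replication gene in 4 comparisons, with genes grouped by role in the same order in each panel. Filled points passed an adjusted p of 0.05 (red higher, blue lower), which 35 genes did as higher and 1 as lower in SCF minus U.

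Transcripts of all 6 subunits of the origin recognition complex, the ATPase that marks origins, were lower in U than in CD117+ cells (median log2 fold change -0.74). In CD117+ against CD117- cells 4 of 6 were higher (Orc3, Orc4, Orc5 and Orc6), and in SCF against U cells 3 of 6 were higher (Orc1, Orc5 and Orc6). Orc6, the smallest subunit, read 10.24, 10.11 and 10.34 in CD117- cells, 10.66, 10.51 and 10.65 in CD117+ cells, 9.16, 9.43 and 9.33 in U cells and 9.90, 10.18 and 10.30 in SCF cells, in replicate order. Its U values lay below all others, and the SCF values overlapped those of CD117- cells and lay below those of CD117+ cells. In SCF against U cells Orc6 was 1.77-fold higher (log2 fold change 0.82 ± 0.13, adjusted p = 0.000198 from limma). Orc5, another subunit, read 8.75, 8.63 and 8.86 in CD117- cells, 9.84, 9.69 and 9.96 in CD117+ cells, 8.28, 8.24 and 8.22 in U cells and 8.63, 8.58 and 8.63 in SCF cells. The CD117+ arrays stood apart from the rest, 2.12-fold above the CD117- arrays (log2 fold change 1.08 ± 0.12, adjusted p = 1.74e-06) and 3.00-fold above the U arrays, and the SCF arrays were 1.29-fold above the U arrays (0.37, adjusted p = 0.0358). A second Orc5 probe gave 1.01 in CD117+ against CD117- and 0.46 in SCF against U, both called. The Orc5 call in SCF against U was lost when any 1 of the 6 arrays was left out (adjusted p 0.0666 to 0.0841).

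Orc1, the largest subunit, read 5.75, 5.79 and 5.43 in CD117- cells, 6.23, 6.02 and 5.78 in CD117+ cells, 5.59, 5.22 and 5.21 in U cells and 6.03, 6.15 and 6.25 in SCF cells. U and SCF did not overlap, while SCF overlapped CD117+ and U overlapped CD117-. It was 1.75-fold higher in SCF cells (log2 fold change 0.81 ± 0.17, adjusted p = 0.00206 from limma), while SCF against CD117+ gave 0.13 (adjusted p = 0.557). Orc2, Orc3 and Orc4 had log2 fold changes of 0.38, 0.21 and 0.09 in SCF against U cells and did not pass the test. Orc3 and Orc4 were lower in SCF than in CD117+ cells, by 1.36-fold and 1.65-fold, and both calls were lost under median scaling (log2 fold change -0.14 and -0.45). The Orc3 call was also lost with the replicate block (adjusted p = 0.0511 from limma) and without CD117+ replicate 2 or 3 or SCF replicate 3. A dim Orc4 probe, above background on 5 arrays, was called the opposite way (0.42, adjusted p = 0.0313), and the mean over both probes gave -0.15 (adjusted p = 0.349). Orc2 was above background on only 9 arrays, and its call in U against CD117+ (log2 fold change -0.47, adjusted p = 0.0376) was lost without CD117+ replicate 1 or 3, or without U replicate 1 or 3. The higher Orc6 level in CD117+ than in CD117- cells (0.38, adjusted p = 0.0236) was lost without CD117- replicate 2 or without CD117+ replicate 1 or 3 (adjusted p 0.0697 to 0.0915). In that comparison the Orc3 call (0.46) was lost with the replicate block (adjusted p = 0.0709) and without CD117+ replicate 2 or 3. The Orc4 call (0.56) was lost there without CD117- replicate 1 (adjusted p = 0.057) and with the mean of both probes (0.10, adjusted p = 0.551).

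Of the licensing factors, Cdc6, the ATPase that joins the origin recognition complex to load the helicase, was the member called in SCF against U. It read 8.91, 8.55 and 8.50 in CD117- cells, 8.69, 8.78 and 8.93 in CD117+ cells, 7.18, 7.31 and 7.34 in U cells and 8.09, 8.37 and 8.08 in SCF cells. The CD117- and CD117+ values overlapped, and the SCF values lay between those of U and those of the other groups. Cdc6 was 1.88-fold higher in SCF than in U cells (log2 fold change 0.91 ± 0.15, adjusted p = 0.000281 from limma) and 2.89-fold lower in U than in CD117+ cells. A dimmer Cdc6 probe, above background on 11 arrays, was not called in SCF against U (0.38, adjusted p = 0.211). That probe was called lower in U than in CD117+ cells (-1.74). Cdt1, the other loading factor, read 10.58, 10.60 and 9.88 in CD117- cells, 10.52, 10.57 and 10.71 in CD117+ cells, 9.82, 9.83 and 9.35 in U cells and 10.17, 9.94 and 10.35 in SCF cells. CD117- replicate 3 sat near the U values. Cdt1 was lower in U than in CD117+ cells (log2 fold change -0.93, adjusted p = 0.000358), and SCF against U gave 0.49 (standard error 0.18, adjusted p = 0.0592), which passed without SCF replicate 2 (0.59, adjusted p = 0.0477).

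Geminin, encoded by Gmnn, went the other way in U and in SCF against CD117+ cells. Its single detected probe read 4.22 to 4.30 in CD117- cells and 4.31 to 4.58 in CD117+ cells, where it was above background on 0 of 3 arrays in each group. In U cells it read 5.28, 4.93 and 4.58, above background on 2 arrays, and in SCF cells 5.25, 5.30 and 5.43, above background on all 3. Against the CD117+ cells it was at least 1.21-fold higher in U (adjusted p = 0.00928 from limma) and at least 1.60-fold higher in SCF cells (adjusted p = 0.000125), where the bound is taken, per array of the dim group, from whichever is greater of the probe's signal and the weakest detected signal. Without U replicate 1 the call in U against CD117+ was lost (adjusted p = 0.0638). In SCF against U cells Gmnn had the sign of most members (log2 fold change 0.39, adjusted p = 0.0663) without a call. It passed there under median scaling (0.55, adjusted p = 0.0198) and without U replicate 1 (0.57, adjusted p = 0.0109). The signal was close to the dimmest one that counts as above background (4.63 to 4.82), so Gmnn rests on weak light throughout. Testing took 3 arrays above background, which Gmnn reached through U and SCF arrays alone. Its calls as higher than in CD117+ cells are therefore tied to that filter and are no separate support.

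All 6 subunits of the MCM2 to MCM7 helicase, the ring that unwinds DNA at the fork, were higher in CD117+ than in CD117- cells, lower in U than in CD117+ cells and higher in SCF than in U cells. In SCF against U cells the log2 fold changes lay between 0.78 and 1.09 with a median of 0.95. Mcm4, a subunit of the catalytic core, read 12.15, 12.05 and 12.04 in CD117- cells, 12.36, 12.43 and 12.60 in CD117+ cells, 11.34, 11.28 and 11.24 in U cells and 12.20, 11.95 and 12.17 in SCF cells. Mcm5, a regulatory subunit at the gate of the ring, read 12.14, 12.12 and 11.93 in CD117- cells, 12.57, 12.49 and 12.51 in CD117+ cells, 11.28, 11.39 and 11.18 in U cells and 12.00, 12.06 and 12.15 in SCF cells. In both genes the SCF values lay in or around the CD117- range, the CD117+ values were the highest and the U values the lowest. Mcm4 was 1.77-fold higher in SCF than in U cells (log2 fold change 0.82 ± 0.10, adjusted p = 2.98e-05 from limma) and Mcm5 was 1.72-fold higher (0.78 ± 0.10, adjusted p = 3.55e-05). The other detected Mcm4 probes were dim and not called, so the mean over all its probes gave 0.34 (adjusted p = 0.179).

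Mcm6, the subunit with 3 E2F words in its promoter window, read 10.31, 10.09 and 11.20 in CD117- cells, 11.90, 11.70 and 11.42 in CD117+ cells, 10.23, 10.26 and 10.34 in U cells and 11.14, 11.20 and 11.55 in SCF cells. The CD117- arrays were spread widely, with replicate 3 near the SCF values, while the U arrays lay within 0.11 of each other. Mcm6 was 2.20-fold higher in the CD117+ than in the CD117- fraction (log2 fold change 1.14 ± 0.21, adjusted p = 0.000278 from limma) and 2.03-fold higher in SCF than in U cells (1.02 ± 0.21, adjusted p = 0.00188). A second bright Mcm6 probe gave 0.59 and 1.03, both called. The remaining dim one, above background on 6 arrays, was called higher in U than in CD117+ cells (1.46), against -1.40 for the brightest probe, and with the mean of all probes SCF against CD117+ turned from -0.38 to 0.54. Mcm2 and Mcm3 were 2.08- and 2.13-fold higher in SCF than in U cells. Mcm3 was higher in CD117+ than in CD117- cells by a log2 fold change of 0.40 (adjusted p = 0.0458), a call lost without any 1 of CD117- replicates 1 and 2 and CD117+ replicates 1 to 3. For Mcm7 the higher level in CD117+ than in CD117- cells (0.75, adjusted p = 0.00113) was seen with the brighter of its 2 detected probes, and the other gave -0.34 (adjusted p = 0.473).

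**Figure D4:**
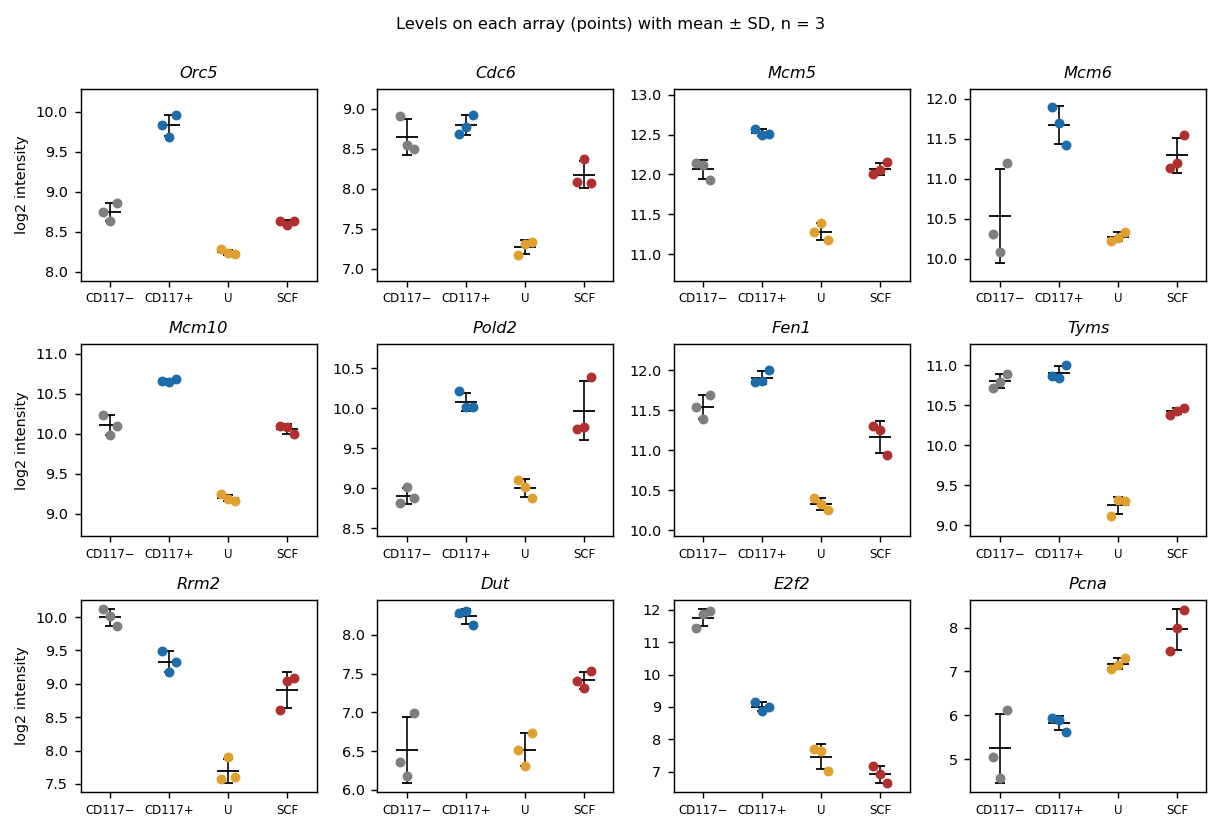
Log2 intensity (vertical axes, each with its own range) of 12 replication genes on every array (points) by group, with mean ± SD over 3 arrays. In 8 of the panels U has the lowest mean, and in the other 4 U and CD117- overlap (Pold2 and Dut), SCF is lowest (E2f2) or CD117- is lowest (Pcna).

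Among the 8 helicase activation genes, 7 were higher in SCF than in U cells and 7 were lower in U than in CD117+ cells, with medians of 0.74 and -1.07. Mcm10, which helps start the assembled helicase, read 10.23, 9.98 and 10.10 in CD117- cells, 10.66, 10.65 and 10.68 in CD117+ cells, 9.24, 9.18 and 9.16 in U cells and 10.10, 10.08 and 9.99 in SCF cells. The arrays of a group differed little, SCF and CD117- cells overlapped, and U and CD117+ stood apart below and above them. Mcm10 was 1.82-fold higher in SCF than in U cells (log2 fold change 0.87 ± 0.11, adjusted p = 2.94e-05 from limma) and 1.47-fold higher in the CD117+ than in the CD117- fraction (0.56, adjusted p = 0.000421). A second Mcm10 probe had the same 4 calls. Cdc7 and Dbf4, kinase and activating subunit, were 1.68- and 1.67-fold higher in SCF than in U cells and had log2 fold changes of 0.10 and -0.11 in CD117+ against CD117- cells, not called. Under median scaling, Dbf4 turned to 0.61 there.

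Cdc45, a core part of the moving helicase, was 1.74-fold higher in SCF than in U cells (adjusted p = 0.00215 from limma) and gave -0.26 in CD117+ against CD117- cells (adjusted p = 0.217). The GINS genes encode the ring-shaped partner of CDC45, and Gins1, Gins2 and Gins4 were higher in SCF than in U cells, by 2.00-, 1.60- and 1.33-fold. Gins1 read 9.41, 9.31 and 7.73 in CD117- cells and 9.44, 9.49 and 9.56 in CD117+ cells. Its replicate 3 in CD117- cells lay below every CD117+ value by more than 1.7, at the level of the U arrays (7.79, 7.95 and 7.83), and the SCF arrays read 8.85, 8.72 and 8.99. CD117+ against CD117- was called only without CD117- replicate 1 or 2 (log2 fold change 0.97 and 0.92) or with median scaling. The Gins4 call in SCF against U was lost without SCF replicate 1 or 2 or U replicate 1 or 2, and that of Gins1 without SCF replicate 3 or U replicate 1 (0.96, adjusted p = 0.058). Gins3, whose promoter window holds an E2F word, was called in none of the 4 comparisons and gave 0.20 in SCF against U cells (standard error 0.18, adjusted p = 0.443).

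Primase and the polymerases contributed 7 tested genes, of which 5 were higher in CD117+ than in CD117- cells, 5 were higher in SCF than in U cells and 6 were lower in U than in CD117+ cells. Pold2, an accessory subunit of polymerase delta, which copies the lagging strand, read 8.82, 9.01 and 8.88 in CD117- cells, 10.21, 10.01 and 10.01 in CD117+ cells, 9.10, 9.02 and 8.88 in U cells and 9.74, 9.77 and 10.39 in SCF cells. CD117- and U cells overlapped at the lower level, and the SCF cells spanned the CD117+ range. Pold2 was 2.25-fold higher in the CD117+ than in the CD117- fraction (log2 fold change 1.17 ± 0.16, adjusted p = 1.05e-05 from limma) and 1.95-fold higher in SCF than in U cells (0.96 ± 0.16, adjusted p = 0.000264), and SCF against CD117+ gave -0.11 (adjusted p = 0.606). Pole, the catalytic subunit of polymerase epsilon of the leading strand, was 1.82-fold higher in the CD117+ than in the CD117- fraction and 1.65-fold higher in SCF than in U cells. Pola2 and Prim2, noncatalytic subunits of polymerase alpha and primase, were higher in both comparisons too, and both were called lower in SCF than in CD117+ cells (log2 fold change -0.80 and -0.53), though not under median scaling (-0.54 and -0.27). A dimmer Prim2 probe, above background on all 12 arrays, was called the opposite way there (0.42, adjusted p = 0.028 from limma), and the mean of the probes gave -0.06 (adjusted p = 0.701). Without SCF replicate 3 the Pola2 call in SCF against U was lost (0.51, adjusted p = 0.0563).

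Pold1 and Pold3, the catalytic subunit and an accessory subunit of polymerase delta, gave 0.45 and 0.35 in SCF against U cells and did not pass (adjusted p = 0.122 and 0.0528 from limma). Pold1 passed under median scaling (0.54), and Pold3 passed there (0.47), with the authors' processed values, the stricter filter, the mean of probes or array weights, and without U replicate 1 or SCF replicate 3. Prim1, the catalytic subunit of primase, was dim. It was above background on 0, 1, 1 and 3 of 3 arrays in CD117-, CD117+, U and SCF cells, where it read 4.28 to 4.31, 4.28 to 4.76, 4.27 to 4.66 and 4.93, 4.98 and 5.50. It was called higher in SCF than in U (adjusted p = 0.00373) and in CD117+ cells (adjusted p = 0.00451), and no fold is given because the lower groups had 1 array each above background. Testing took 3 arrays above background, which Prim1 reached only with the SCF arrays. Its calls as higher in SCF cells are therefore tied to that filter and are no separate support.

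The clamp loader genes followed the U minimum and the clamp gene did not. Rfc5, a small subunit of replication factor C, which opens the clamp and sets it on DNA, read 8.76, 8.95 and 8.70 in CD117- cells, 9.46, 9.20 and 9.29 in CD117+ cells, 8.47, 8.21 and 8.25 in U cells and 9.08, 9.18 and 9.57 in SCF cells. Each U value lay below each value of the other groups, and SCF and CD117+ overlapped. Rfc5 was 1.95-fold higher in SCF than in U cells (log2 fold change 0.97 ± 0.15, adjusted p = 0.000157 from limma). Its other detected probes were dim and not called, and with the mean over probes the difference was 0.33 (adjusted p = 0.0625). Rfc1, Rfc3 and Rfc4 were 1.68-, 1.86- and 1.67-fold higher in SCF than in U cells. Rfc2 was not called in any comparison with its brightest probe (0.02 in SCF against U), but 3 other bright probes gave 0.62 (adjusted p = 0.00503), 0.38 (adjusted p = 0.0203) and 0.37 (adjusted p = 0.0547) there, and all 3 were higher in CD117+ than in CD117- cells (0.32 to 0.47).

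Pcna encodes the sliding clamp that holds the polymerases on DNA, and its values are given because they opposed those of most other members, a choice made after they were seen. It read 5.04, 4.57 and 6.12 in CD117- cells, 5.94, 5.89 and 5.63 in CD117+ cells, 7.06, 7.15 and 7.31 in U cells and 7.47, 7.99 and 8.41 in SCF cells. All U and SCF values lay above all CD117- and CD117+ values. Pcna was 2.55-fold higher in U than in CD117+ cells (log2 fold change 1.35 ± 0.30, adjusted p = 0.00104 from limma) and 4.39-fold higher in SCF than in CD117+ cells (2.14, adjusted p = 1.88e-05). SCF against U gave 0.78 (adjusted p = 0.064), which passed without SCF replicate 1 (1.03, adjusted p = 0.0303) and under several other settings, among them a fit of those 6 arrays alone and the authors' processed values. CD117+ against CD117- gave 0.58 (adjusted p = 0.125) and 1.01 without CD117- replicate 3 (adjusted p = 0.00215). Pcna had 1 detected probe, so its direction could not be compared with that of another.

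By their brightest probes, both enzymes that finish Okazaki fragments were higher in SCF than in U cells and lower in U than in CD117+ cells. Fen1, the nuclease that trims the flap of a fragment, read 11.54, 11.39 and 11.69 in CD117- cells, 11.86, 11.87 and 12.00 in CD117+ cells, 10.41, 10.33 and 10.25 in U cells and 11.31, 11.26 and 10.94 in SCF cells. The 4 groups did not overlap, with U lowest, then SCF, CD117- and CD117+. Fen1 was 1.79-fold higher in SCF than in U cells (log2 fold change 0.84 ± 0.12, adjusted p = 8.47e-05 from limma) and 2.99-fold lower in U than in CD117+ cells. Its higher level in CD117+ than in CD117- cells (0.37, adjusted p = 0.0172) was lost without CD117- replicate 2 or CD117+ replicate 3 (0.30 and 0.32). Lig1, the ligase that seals the nick, was 1.77-fold higher in SCF than in U cells. Another bright Lig1 probe gave 1.30 there and was lower in SCF than in CD117+ cells (-1.13), where the brightest one gave 0.05. The next, dimmer Lig1 probe did not pass in SCF against U (0.33, adjusted p = 0.255) and was lower in U than in CD117+ cells (-0.70). The last, above background on 6 arrays, gave -0.05 in SCF against U and was called higher in U than in CD117+ cells (0.38, adjusted p = 0.0418).

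The 5 enzymes of nucleotide supply were all higher in SCF than in U cells, with a median log2 fold change of 1.06, and all lower in U than in CD117+ cells, with a median of -1.66. Tyms, the thymidylate synthase, read 10.72, 10.79 and 10.89 in CD117- cells, 10.87, 10.84 and 11.00 in CD117+ cells, 9.12, 9.32 and 9.30 in U cells and 10.38, 10.43 and 10.46 in SCF cells. The CD117- and CD117+ values overlapped, and the U values lay more than 1 below the SCF values. Its adjusted p in SCF against U was the smallest among the members (2.26-fold, log2 fold change 1.17 ± 0.11, adjusted p = 1.9e-06 from limma). Rrm2, the small subunit of ribonucleotide reductase, read 10.12, 10.01 and 9.87 in CD117- cells, 9.49, 9.18 and 9.32 in CD117+ cells, 7.57, 7.90 and 7.60 in U cells and 8.60, 9.04 and 9.08 in SCF cells. No groups overlapped, and CD117- cells were the highest. Rrm2 was 2.33-fold higher in SCF than in U cells (1.22 ± 0.16, adjusted p = 3.06e-05) and 1.59-fold lower in the CD117+ than in the CD117- fraction (-0.67, adjusted p = 0.00172), though median scaling turned the latter to 0.03 (adjusted p = 0.91). A second bright Rrm2 probe gave 1.25 and -0.62, both called. In SCF against CD117+ cells that probe gave -0.09, and the call of the brightest (-0.42, adjusted p = 0.0342) was lost without CD117+ replicate 1 or 3 or SCF replicate 1.

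Dut, which breaks down dUTP and so keeps uracil out of DNA, read 6.36, 6.18 and 6.99 in CD117- cells, 8.28, 8.31 and 8.13 in CD117+ cells, 6.51, 6.31 and 6.74 in U cells and 7.41, 7.31 and 7.53 in SCF cells. CD117- and U overlapped at the lowest level, SCF lay above them, and CD117+ was highest. Dut had the largest increase of the tested members in CD117+ against CD117- cells, 3.33-fold (log2 fold change 1.73 ± 0.20, adjusted p = 1.36e-06 from limma). It was 1.86-fold higher in SCF than in U cells. A dimmer Dut probe was called higher in both as well (1.04 and 0.93) but higher in SCF than in CD117+ cells (0.78), where the brighter one was lower (-0.82). Tk1, the thymidine kinase of the salvage pathway, was 1.89-fold higher in SCF than in U and 4.05-fold lower in U than in CD117+ cells, and Rrm1, the large subunit of ribonucleotide reductase, was 2.09-fold higher and 2.62-fold lower. Both had CD117+ against CD117- values that did not pass (-0.03 and 0.29), and Rrm1 passed there without CD117- replicate 3 (0.46) or CD117+ replicate 3 (0.43).

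The regulators of S phase entry were lower in U and in SCF than in CD117+ cells in 4 of 4 genes. E2f1, an activating E2F factor, read 9.93, 9.80 and 9.75 in CD117- cells, 9.79, 9.85 and 9.73 in CD117+ cells, 8.59, 8.64 and 8.90 in U cells and 9.27, 9.15 and 9.13 in SCF cells. CD117- and CD117+ overlapped, and SCF lay between them and U. E2f1 was 1.39-fold higher in SCF than in U cells (log2 fold change 0.48 ± 0.12, adjusted p = 0.00826 from limma). E2f2, an activating E2F factor with a known part in the maturation of erythroblasts, read 11.45, 11.88 and 11.95 in CD117- cells, 9.14, 8.86 and 9.01 in CD117+ cells, 7.71, 7.65 and 7.02 in U cells and 7.17, 6.94 and 6.64 in SCF cells. The 3 groups CD117-, CD117+ and U were far apart, and U and SCF overlapped. It was 6.76-fold lower in the CD117+ than in the CD117- fraction (-2.76 ± 0.19, adjusted p = 5.4e-09), and both other E2f2 probes above background on all 12 arrays gave -2.84 and -2.99. A dim one, above background on 3 arrays, was also called lower. The lower E2f2 level in SCF than in U cells (-0.54, adjusted p = 0.0467) was lost without U replicate 1 or 2 or SCF replicate 2 or 3 (adjusted p 0.0882 to 0.19), as well as under median scaling, without background correction or filter, with the authors' processed values, with the mean of probes and in a fit of the 6 arrays alone, and its other probes gave -0.40 to 0.27 without a call.

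The cyclin E genes, whose products drive the kinase CDK2 at the start of S phase, are given after their values were seen. Ccne1 read 9.04, 8.85 and 8.87 in CD117- cells, 9.39, 9.20 and 9.06 in CD117+ cells, 6.84, 6.57 and 6.32 in U cells and 7.16, 7.48 and 6.97 in SCF cells. U and SCF cells both lay far below the other groups. Ccne1 was 6.24-fold lower in U than in CD117+ cells (log2 fold change -2.64 ± 0.17, adjusted p = 1.47e-09 from limma), the largest decrease among the tested members there, and 4.05-fold lower in SCF than in CD117+ cells. It was 1.54-fold higher in SCF than in U cells (0.62, adjusted p = 0.0121), a call lost without U replicate 3 or SCF replicate 2 (0.49 in each). Ccne2 read 7.27, 7.51 and 7.77 in CD117- cells, 6.56, 6.34 and 7.41 in CD117+ cells, 4.58, 4.95 and 5.04 in U cells and 5.31, 5.01 and 5.61 in SCF cells. The 2 fractions overlapped through CD117+ replicate 3, and U and SCF overlapped far below them. Its lower level in CD117+ cells (-0.75, adjusted p = 0.0186) was lost without CD117- replicate 3 or CD117+ replicate 1 or 2 (adjusted p 0.07 to 0.112).

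Of 8 tested members with an E2F word in the promoter window, 6 were higher in SCF than in U cells and 7 were lower in U than in CD117+ cells, with median log2 fold changes of 0.85 and -1.13. Among 30 tested members with a window and no such word, 23 were higher and 1 was lower in SCF than in U cells and 28 were lower and 1 was higher in U than in CD117+ cells, with medians of 0.77 and -1.24.

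Other genes of the same process were described as a reference. Of 47 other replication genes, such as claspin, replication protein A and chromatin assembly factors, 42 were tested, of which 28 were higher and 0 lower in SCF than in U cells (median 0.61), and 5 were higher and 32 lower in U than in CD117+ cells (median -0.80). In CD117+ against CD117- cells 10 were higher (23.8%, against 29.6% of all genes) and 5 lower (11.9%, against 21.3%), with a median of 0.14, so the share of higher genes was below that of all genes. In SCF against CD117+ cells 4 were higher and 19 lower (median -0.39). The fork protection genes Tipin and Clspn were 2.31- and 1.82-fold higher in SCF than in U cells, and Dctd, which deaminates dCMP, was 5.73-fold higher in the CD117+ fraction than in the CD117- one. Of the 20 mitosis genes 16 were tested, and 15 were higher and 0 lower in SCF than in U cells (median 0.80), among them Bub1b, Top2a and Birc5 (2.14-, 2.18- and 1.76-fold). In U against CD117+ cells 1 was higher and 15 were lower (median -1.18).

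Between the 2 fractions the medians of the mitosis genes and the replication members had opposite signs after quantile normalization, and the same sign after median scaling. In CD117+ against CD117- cells 0 of 16 mitosis genes were higher and 7 were lower, with a median log2 fold change of -0.33, which median scaling turned to 0.37 with 6 higher and 2 lower. The 47 replication members, with 21 higher, 3 lower and a median of 0.35, had a median of 0.98 under median scaling, and the other replication genes one of 0.75. The median of all genes was 0.07 and 0.49 under the 2 scalings, so that the mitosis list lay below all genes and the replication members above them under both. Nusap1, a spindle protein, Mki67, the proliferation marker Ki-67, and Kif23, a motor of cell division, were 2.37-, 1.91- and 2.00-fold lower in CD117+ cells. Their log2 fold changes stayed negative under median scaling (-0.59, -0.36 and -0.52), although Mki67 lost its call (adjusted p = 0.0648 from limma). They were named for their adjusted p after quantile normalization and do not stand for the list. Under median scaling Bub1b and Top2a were called higher in CD117+ cells (0.91 and 0.52), and Birc5 gave 0.01. The difference between the lists was not tested.

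**Figure D5:**
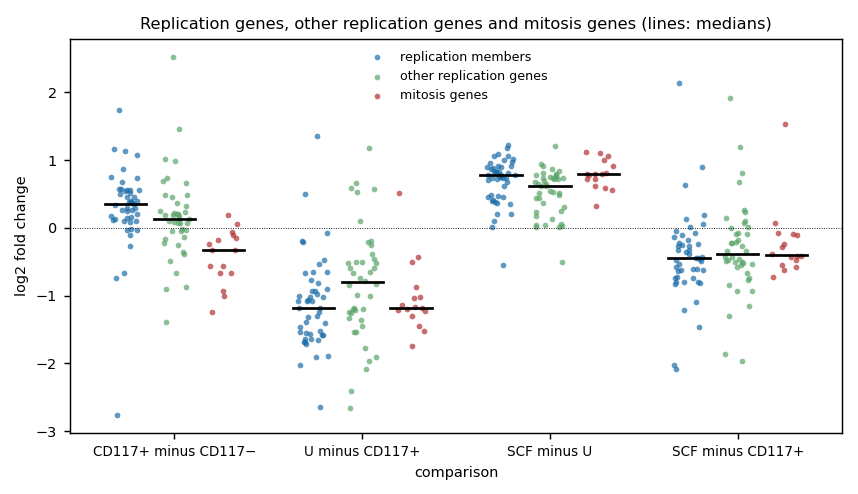
Log2 fold changes (vertical axis) of the 47 tested replication members, 42 other replication genes and 16 mitosis genes in the 4 comparisons, with black lines at the medians. The medians are 0.78, 0.61 and 0.80 in SCF minus U, and 0.35, 0.14 and -0.33 in CD117+ minus CD117-, where median scaling turns the last to 0.37.

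Markers of other cell types moved with the same comparisons, and their part in the differences was not tested. Of all genes tested, 29.6% were higher and 21.3% lower in CD117+ against CD117- cells. The shares were 28.5% and 28.5% in U against CD117+ cells, and 14.1% and 13.7% in SCF against U cells. Among mature neutrophil markers 9 of 10 were lower in CD117+ than in CD117- cells and 9 of 10 were higher in U than in CD117+ cells, and their summed level (log2) was 16.50 to 16.68 in CD117-, 10.72 to 11.61 in CD117+, 14.86 to 14.99 in U and 14.63 to 14.83 in SCF cells. Of the erythroid markers 5 of 7 were lower in CD117+ than in CD117- cells and 6 of 7 were lower and 1 was higher in SCF than in U cells, with summed levels of 16.29 to 16.32 in CD117-, 15.03 to 15.33 in CD117+, 14.76 to 14.84 in U and 13.37 to 13.73 in SCF cells. Megakaryocyte markers were higher in U than in CD117+ cells in 6 of 7 genes and lower in SCF than in U cells in 6 of 7, with summed levels of 13.02 to 13.55 in CD117+, 15.50 to 15.55 in U and 14.17 to 14.30 in SCF cells. Monocyte and macrophage markers were higher in U than in CD117+ cells in 6 of 7 genes and lower in 1, and in SCF against U cells 4 of 7 were lower and 1 was higher. Granulocyte precursor markers, by contrast, were lower in U than in CD117+ cells in 4 of 6 genes and higher in SCF than in U cells in 4 of 6. Stem and progenitor markers were higher in CD117+ than in CD117- cells in 6 of 7 genes, lower in 1, and higher in SCF than in U cells in 2 of 7. In SCF against U cells 2 of 6 B cell and 2 of 2 eosinophil markers were lower and 0 higher, 5 of 7 T and NK cell markers were lower and 1 was higher, and 2 of 7 mast cell and basophil markers were lower and 2 higher. Of the mature neutrophil markers 3 of 10 were lower and 3 higher there. In CD117+ against CD117- cells 6 of 7 monocyte and macrophage markers and 6 of 6 B cell markers were lower, with 0 higher. Megakaryocyte markers were higher there in 4 of 7 genes and lower in 0, and granulocyte precursor markers were higher in 1 of 6 and lower in 2. In U against CD117+ cells 4 of 7 stem and progenitor markers were lower and 1 was higher. Not every list is given in every comparison.

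The summed level (log2) of the 47 members was 15.50 to 15.52 on the CD117- arrays, 15.73 to 15.79 on the CD117+ arrays, 14.47 to 14.58 on the U arrays and 15.22 to 15.37 on the SCF arrays. Of the 36 member calls in SCF against U, 28 kept their direction and their side of the threshold under every alternative run in which the gene was tested, and of the 44 calls in U against CD117+ 40 did so. The corresponding counts were 12 of 24 calls in CD117+ against CD117- and 14 of 28 in SCF against CD117+ cells. The 28 calls kept in SCF against U include Prim1, and the 14 kept in SCF against CD117+ include Prim1 and Gmnn. Both were tested only because of groups where they were high. The 12 genes of the CD117+ against CD117- comparison were Orc5, Mcm2, Mcm5, Mcm6, Mcm10, Gins2, Pola2, Prim2, Pold2, Pole, Dut and E2f2.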

How the data were processed

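RNA of 3 CD117-, 3 CD117+, 3 U and 3 SCF samples was read on Illumina arrays. The authors deposited unnormalized, linear scanner intensities without background correction. A deposited p-value of detection accompanies every intensity. A second deposited table holds the authors' processed intensities, which had 1 shared distribution in the A and C arrays (medians 93.4 to 93.5) and another in the U and SCF arrays (median 103.5). Neither array model nor scanner software is named (not given in the sources used here), and although the values are array intensities, the methods describe sequencing and count data. Of 45281 probes 35784 had 1 gene symbol and 9497 none. At most 0.00221% of probes had identical raw values in any pair of arrays.

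Intensities were corrected by normexp with the detection p-values, quantile normalized over 12 arrays (neqc, offset 16) and set on the log2 scale with limma 3.58.1 in R 4.3.3. A probe was kept when its detection p was below 0.05 on 3 or more of the 12 arrays, and the brightest stood for each of 11472 genes. Groups were compared with lmFit and eBayes (trend, 4 group means, 8 residual degrees of freedom, Benjamini-Hochberg over all genes, adjusted p under 0.05). A further probe of a member takes its values from a fit of the 17712 kept probes that carry a symbol. For members with several detected probes, another probe gave another call in 44 of 84 pairs of member and comparison, and the opposite call in 5. The number of arrays limits the precision. Members and lists were chosen with earlier results of these data known. Values on every array are given for the members of each role with the smallest adjusted p in SCF against U and in CD117+ against CD117- cells and for members called in opposite directions there, and for others chosen after their values were seen (Orc1, Mcm5, Pcna, Gmnn, Prim1, Gins1, Ccne1 and Ccne2), except that Gmnn and Prim1 have ranges in groups where most arrays were below background. Reference lists were other replication genes, mitosis genes and 10 cell type marker lists. Alternatives were median scaling, no background correction, processed values as deposited, a laxer and a stricter filter on dim probes, averaging the probes of a gene, fitting the 6 arrays of a comparison alone, a replicate block, array weights and leaving out each array. Plots were made in matplotlib 3.10.9 under Python 3.11.15.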

Additional observations from a re-analysis of the deposited data

How the results depend on the processing

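Of 232 recomputed counts and medians of the replication members, 202 lay within 1.5 times the main count or within 0.117 of the main median, the SD of the members' median level between arrays of a group. All 116 recomputed medians kept their sign. Among single members 8 values called in 1 of the 2 fits reversed, 95 calls were lost and 68 were gained, 41 values called in neither fit had another sign or came to 0, and 2502 kept sign and side of the threshold. Median scaling gave 41 higher and 1 lower member in CD117+ against CD117- cells with a median log2 fold change of 0.98 (0.49 above that of all genes), 0 lower in SCF against U, a median of -1.01 in U against CD117+, and 5 higher, 11 lower and a median of -0.21 in SCF against CD117+ cells. Of all 11472 genes it called 6001 higher and 1024 lower in CD117+ against CD117-, and 3878 higher and 1374 lower in SCF against CD117+ cells. Its reversed values were Dbf4 0.61, Cdc45 0.46, Rrm2 0.03, Tk1 0.59 and E2f1 0.68 in CD117+ against CD117- cells, where the median over all genes went from 0.07 to 0.49. The share of higher among all called genes moved from 50.8% to 60.3% in SCF against U, from 50.0% to 61.1% in U against CD117+ and from 52.9% to 73.8% in SCF against CD117+ cells. Without background correction SCF against U had 0 lower and a median of 0.61 (0.60 above all genes), and U against CD117+ a median of -0.97 (-0.96 relative to all genes). The authors' processed values, used within each set only, gave 0 lower and 0.62 (0.61 above all genes) in SCF against U. No filter on dim probes and a fit of the 6 arrays alone each left 0 lower there. A stricter filter, under which 44 members were tested, left 1 higher in U against CD117+ and 1 in SCF against CD117+ cells. The mean of all probes gave 0 lower in SCF against U, medians of -1.01 (-0.99 relative to all genes) in U against CD117+ and -0.33 in SCF against CD117+ cells, and reversed Mcm4 in CD117+ against CD117- (to 0) and Mcm6 (0.54) and Lig1 (-0.28) in SCF against CD117+ cells. Beyond these constructions the cause of a change was not tested. Leaving out 1 array gave 17 to 23 higher and 2 to 3 lower in CD117+ against CD117- cells, 33 to 34 higher and 0 to 1 lower in SCF against U, 1 to 2 higher and 41 to 42 lower in U against CD117+, and 3 higher and 23 to 25 lower in SCF against CD117+ cells. The lone lower member in SCF against U, E2f2, was lost without U replicate 1 or 2 or SCF replicate 2 or 3, and 1 of the 2 higher members in U against CD117+, Gmnn, without U replicate 1. The replicate block gave 20 higher and 3 lower members in CD117+ against CD117-, 35 and 1 in SCF against U, 2 and 42 in U against CD117+, and 3 and 25 in SCF against CD117+ cells. Deviations from the group means correlated between -0.19 and 0.21 for samples of equal replicate number, and the numbers were not taken as pairs, although the sources do not say which samples share a mouse. Dim probes such as those of Gmnn and Prim1 limit what can be read from them.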
